A study of Mus musculus with 10 samples.

Results

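The genes described here encode the proteins of the mitochondrial ribosome (mitoribosome), measured by RNA sequencing in splenic natural killer (NK) cells and liver type 1 innate lymphoid cells (ILC1) of mice that received the JAK inhibitor tofacitinib. They were chosen by name, as every row of both gene tables whose symbol starts with Mrpl or Mrps and a digit, with pseudogene names left out. This gave 78 of the 24981 genes in each table, 49 named Mrpl and 29 named Mrps. By structure 26 of them belong to the small subunit and 51 to the large subunit, because Mrps18a and Mrps30 sit in the large subunit despite their names. Mrps36, now known as a subunit of the 2-oxoglutarate dehydrogenase complex, was kept as a member by its symbol. All 78 were expressed above the level needed for testing in NK cells in both groups. In ILC1 all 78 passed in vehicle and 77 in tofacitinib.

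All mice were of the BALB/C strain, with no genetic change listed, and were given vehicle or tofacitinib by oral gavage for 1 week; the age was not given. NK cells were sorted from spleen as NKp46+ CD3- cells and ILC1 from liver as CD3- Nkp46+ DX5dim TRAIL+ cells, with 3 vehicle libraries and 2 tofacitinib libraries of each. A library was made from cells pooled from several mice, so errors and p-values measure the spread between pools. The comparison asked how blocking cytokine signals through Janus kinases changes the transcripts of these cells at rest.

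Mitochondria carry their own genome, which encodes a few core subunits of the respiratory chain, and the mitoribosome is the machine that translates them. Its RNAs come from that genome, but all of its proteins are encoded in the nucleus, made in the cytosol and imported, so a large set of genes spread over many chromosomes has to be expressed side by side. Many of these proteins descend from bacterial ribosomal proteins, and others were added in the course of mitochondrial evolution. Mitochondrial translation supports the respiration of activated lymphocytes, and Myc is known to drive genes of mitochondrial biogenesis.

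The libraries had 29199973 to 79258362 alignments. Values are RPKM (reads over the exons of a gene, divided by their length in kilobases and by the number of reads mapped in that library). They hold no counts, so depth per gene is unknown and precision was read from the spread between libraries. The sorted cells carried their defining markers: the 6 NK markers summed to 694 to 813 RPKM in NK libraries and 9.67 to 30.0 in ILC1 libraries, and the 6 ILC1 markers to 261 to 580 RPKM in ILC1 and 38.3 to 79.5 in NK libraries. The ILC1 libraries came from sequencing runs: vehicle replicate 2 and tofacitinib replicate 1 shared a run (run a), vehicle replicate 3 and tofacitinib replicate 2 shared another (run b), and vehicle replicate 1 stood alone. Both run a libraries had low RPKM of most genes, with a median over the genes tested of 7.58 and 8.94, against 11.9 to 13.2 in the other 3 ILC1 libraries. Tofacitinib replicate 1 of ILC1 also stood apart by markers of other cells. Its 8 neutrophil markers summed to 149.7 RPKM against 0.178 to 4.42 in the other ILC1 libraries, with S100a8 at 42.8 RPKM and none of the 8 at 0, and its 8 erythroid markers to 365 against 1.88 to 34.9. In NK cells vehicle replicate 1 had the highest sums of both lists, 310 RPKM of erythroid markers against 50.1 to 105 and 10.02 RPKM of neutrophil markers against 0.223 to 0.632. Other marker sums moved with the treatment. In NK cells the 5 markers shared by NK cells and ILC1 summed to 2226, 2337 and 2087 RPKM in vehicle and 1645 and 1679 in tofacitinib. The 6 ILC1 markers summed to 44.9, 38.4 and 38.3 in vehicle NK libraries against 66.5 and 79.5 in tofacitinib. Most of that rise was Il7r, with 22.2, 19.1 and 19.1 RPKM against 43.5 and 53.1. Tnfsf10 and Cxcr6 overlapped between the groups, and Itga1, Cd200r1 and Rora rose far less than Il7r. In ILC1 the 6 B-cell markers summed to 8.74, 13.3 and 13.5 in vehicle and 17.7 and 27.4 in tofacitinib. Their sums were larger in NK libraries, at 76.9 to 127.5 RPKM, with overlapping groups. The 6 T-cell markers summed to 130 to 259 RPKM in ILC1, where Cd3g alone had 118 to 247, against 15.8 to 20.5 in NK libraries. The part of these marker shifts and sums in the results was not tested. In bulk RNA of this kind, fewer cells of a type and less RNA per cell cannot be told apart.

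Transcript levels of the members spanned a wide range although their proteins sit together in 1 particle. In vehicle NK cells the mean RPKM of the highest member was 24.5 times that of the lowest, and in vehicle ILC1 33.9 times. The 5 highest in NK cells were Mrps21, a homologue of bacterial S21, with 62.5, 73.0 and 50.2 RPKM in the 3 vehicle libraries, Mrps26 (54.7, 61.1 and 57.5), Mrpl33 (65.0, 56.6 and 47.5), Mrpl52 (53.5, 55.2 and 53.3) and Mrpl9, a homologue of bacterial L9 (52.8, 56.0 and 48.5). The ranges of these 5 genes overlapped, so their order is not resolved. The lowest was Mrpl17, a homologue of bacterial L17, with 2.71, 2.87 and 2.002 RPKM. Above it lay Mrpl15 (3.12 ± 0.447, SD, n = 3), Mrpl1 (3.19 ± 0.144), Mrpl35 (3.78 ± 0.476) and Mrpl48 (4.09 ± 0.417), of which Mrpl15 and Mrpl1 lay within 1 SD of each other, as did Mrpl35 and Mrpl48. In ILC1 the order was nearly the same, with Mrpl52 (78.3 ± 17.2), Mrps21 (58.0 ± 10.8), Mrps26 (54.2 ± 15.0), Mrpl33 (52.4 ± 7.89) and Mrpl24 (48.7 ± 14.3) at the top and Mrpl17 (2.31 ± 0.423), Mrpl1 (2.80 ± 0.484), Mrpl48 (3.63 ± 0.944), Mrps25 (4.08 ± 1.42) and Mrpl15 (4.30 ± 1.35) at the bottom. Over the 78 members the rank correlation of the vehicle levels between the cell types was 0.965 (Spearman), given as a description across genes that share libraries. The tables of the cell types were normalised separately, so levels were not tested between them.

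**Figure D1:**
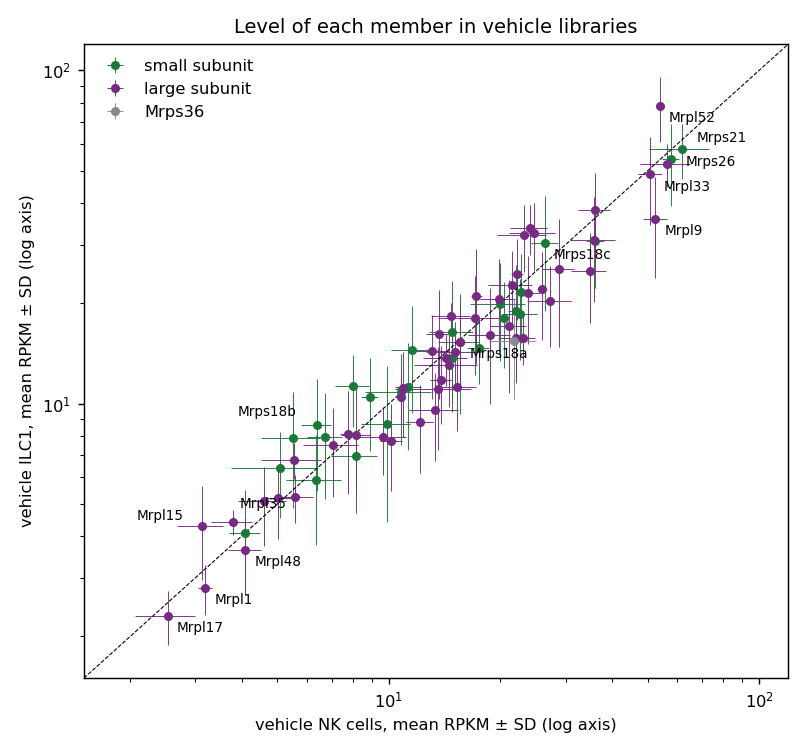
Mean RPKM of each member in the 3 vehicle libraries of NK cells (x axis) and of ILC1 (y axis), both on log axes, with SD as bars and the diagonal dashed. Members run from Mrpl17 near 2.5 RPKM to Mrps21 and Mrpl52 above 50, and lie close to the diagonal in both subunits.

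The 3 paralogues related to bacterial S18 occur in mammals and take different places in the mitoribosome. They differed in level in the same order in both cell types. In vehicle NK cells Mrps18c, the S18 of the small subunit proper, had 24.5, 28.9 and 25.8 RPKM, Mrps18a of the large subunit 16.3, 14.8 and 15.7, and Mrps18b of the small subunit 5.96, 7.04 and 6.13. The ranges did not overlap. In vehicle ILC1 the means were 30.4 ± 11.5, 15.3 ± 4.47 and 8.65 ± 3.17 RPKM (SD, n = 3).

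In NK cells 4 members were lower with tofacitinib and none higher. The 4 were Mrpl52, Mrpl54 and Mrpl36 of the large subunit and Mrps18b of the small subunit, with tofacitinib levels of 0.62 to 0.76 times those of vehicle. Most of the other members had small negative estimates that did not pass the test. The test was limma on log2(RPKM + 0.1), two-sided, with p-values adjusted by Benjamini-Hochberg over the 9472 genes tested and a threshold of 0.05. Over all genes tested 3.02% were called lower and 1.79% higher, and among the 78 members 5.13% were called lower. At an unadjusted p under 0.05, 20 members were lower and 2 higher (25.6% and 2.56%; limma), against 13.1% and 10.2% of all genes tested.

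Mrpl52 encodes a large-subunit protein with no counterpart in bacteria and was among the most abundant members. Its RPKM was 53.5, 55.2 and 53.3 in the vehicle libraries and 39.2 and 37.1 in the tofacitinib libraries. The vehicle values lay within 2 RPKM of each other and both treated values lay far below them. Group means were 54.0 ± 1.02 RPKM (SD, n = 3) in vehicle and 38.2 ± 1.48 RPKM (SD, n = 2) in tofacitinib. On the log2 scale this was -0.50 with an SE of 0.07 (adjusted p = 0.00987 by limma). Mrpl36 encodes the counterpart of bacterial L36, a very small zinc-binding protein. It had 26.7, 25.1 and 25.9 RPKM in vehicle and 20.2 and 19.2 in tofacitinib, again without overlap. On the log2 scale the difference was -0.39 (SE 0.08, adjusted p = 0.0259 by limma), and the adjusted p was 0.0851 without vehicle replicate 1 and 0.0546 with the letter of the library in the sample sheet as a block. Its call was lost in 8 of 16 alternatives.

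Mrpl54, also absent from bacteria, lies near the base of the stalk through which translation factors reach the ribosome. It showed the largest fall of any member in NK cells, from 14.8, 15.9 and 12.1 RPKM to 9.51 and 8.17. Its log2 difference was -0.68 (SE 0.13, adjusted p = 0.0232 by limma). Mrps18b had 5.96, 7.04 and 6.13 RPKM in vehicle and 4.52 and 4.37 in tofacitinib. All treated values of both genes lay below all vehicle values, and the log2 difference of Mrps18b was -0.51 (SE 0.11, adjusted p = 0.0416 by limma). Leaving out vehicle replicate 1, the NK library with the most erythroid and neutrophil transcripts, gave -0.65 for Mrpl54 (adjusted p = 0.0698) and -0.55 for Mrps18b (adjusted p = 0.0713). The part of those transcripts in the result was not tested. Without vehicle replicate 3 the adjusted p of Mrps18b was 0.0564. Without either tofacitinib library none of the 4 calls held, with limma adjusted p between 0.0935 and 0.287. Of the S18 paralogues, Mrps18b alone was called lower: Mrps18a was 15.7 and 15.1 RPKM in tofacitinib (log2 -0.02, adjusted p = 0.920) and Mrps18c was 21.02 and 25.6 (log2 -0.18, adjusted p = 0.347; limma). Whether the paralogues differed from each other in response was not tested.

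**Figure D2:**
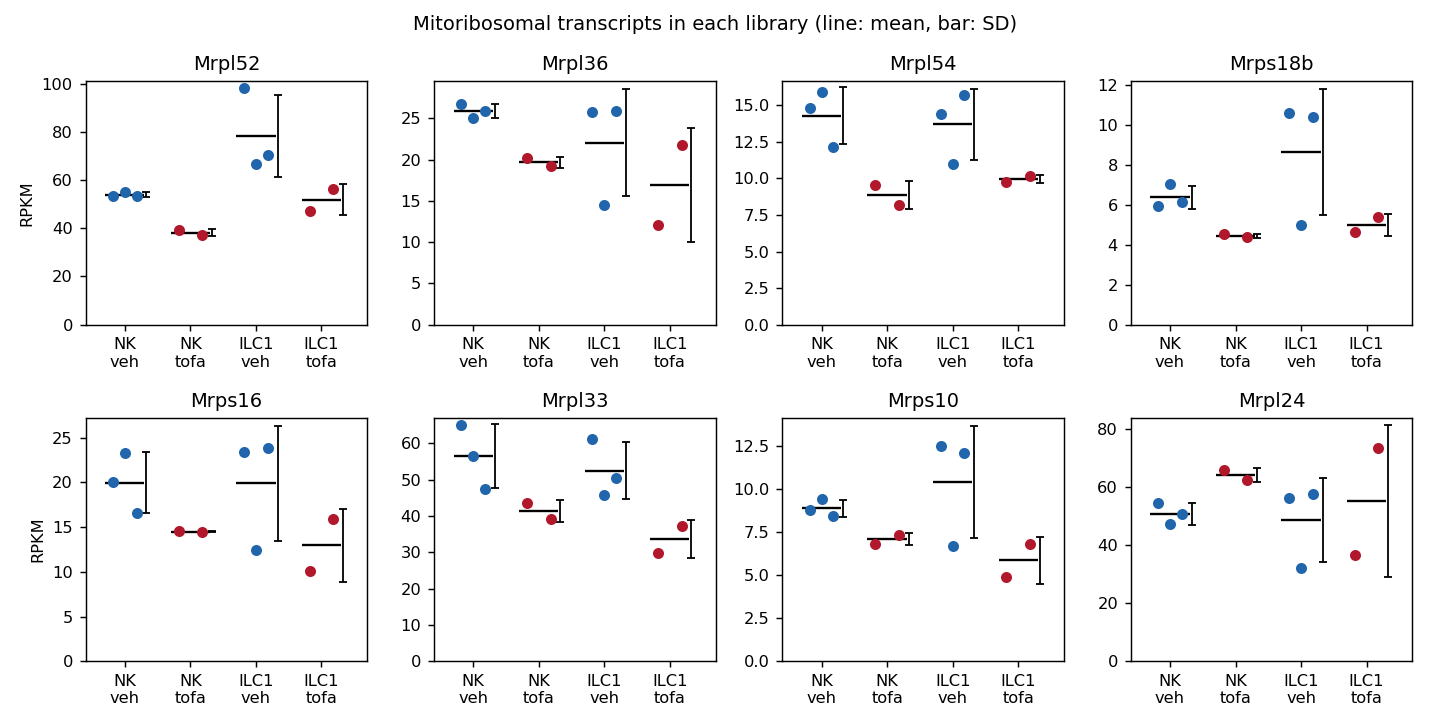
RPKM of 8 members in each of the 10 libraries, with vehicle in blue, tofacitinib in red, the group mean as a line and the SD as a bar. In NK cells the 4 members of the upper row fell with no overlap between groups, while in ILC1 the vehicle libraries spread widely, as from 4.99 to 10.6 RPKM for Mrps18b.

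The stretches of the genome before the start sites of 3 of the called members are printed here, with that of Mrpl24, which had one of the highest positive estimates, to show how unlike the promoters of genes for 1 particle can be. Each holds the 250 bases before a RefSeq start site (build GRCm38.p6), 5′ to 3′ on the gene's strand. Capitals mark the letters of motifs known from nuclear genes for mitochondrial proteins, searched on both strands: CGCATGCG of NRF1, CCGGAAG of ETS factors such as GABP, AAGATGGC of YY1, and the E-box CACGTG that Myc and its relatives can bind.
Mrpl52, chr14:54426659-54426908, + strand: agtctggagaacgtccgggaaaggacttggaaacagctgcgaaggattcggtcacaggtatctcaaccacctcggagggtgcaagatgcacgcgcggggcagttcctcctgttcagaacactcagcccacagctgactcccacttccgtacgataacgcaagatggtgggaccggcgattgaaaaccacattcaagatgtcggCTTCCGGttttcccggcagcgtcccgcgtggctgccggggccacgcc
Mrpl36, chr13:73330759-73331008, + strand: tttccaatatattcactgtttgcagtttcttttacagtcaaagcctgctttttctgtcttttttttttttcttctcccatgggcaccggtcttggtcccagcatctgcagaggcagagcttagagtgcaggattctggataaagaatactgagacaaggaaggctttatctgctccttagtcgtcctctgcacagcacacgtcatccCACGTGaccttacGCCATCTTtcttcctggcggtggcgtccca
Mrps18b, chr17:35916441-35916690, - strand: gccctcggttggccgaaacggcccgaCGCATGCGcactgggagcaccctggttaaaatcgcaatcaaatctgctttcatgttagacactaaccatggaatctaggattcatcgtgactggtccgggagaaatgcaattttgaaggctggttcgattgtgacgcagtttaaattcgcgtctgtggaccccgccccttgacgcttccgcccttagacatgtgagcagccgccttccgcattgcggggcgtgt
Mrpl24, chr3:87919294-87919543, + strand: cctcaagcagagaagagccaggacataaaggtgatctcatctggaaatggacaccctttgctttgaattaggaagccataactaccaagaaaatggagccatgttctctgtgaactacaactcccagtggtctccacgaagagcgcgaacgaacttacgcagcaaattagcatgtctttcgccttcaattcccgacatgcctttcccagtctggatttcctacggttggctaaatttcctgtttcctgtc
In these windows Mrpl52 held an ETS word at -47 and Mrpl36 an E-box at -43 and a YY1 word at -30, counted from the start site to the first base of the word. Mrps18b held an NRF1 word at -224. Mrpl24 held none of the 4 words. The RefSeq start of Mrpl36 lies inside the longer gene model of GENCODE, whose first exon begins upstream. Mrpl54 had no RefSeq window and its sequence is not shown.

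The members with the next lowest estimates in NK cells did not pass the main test. Mrps27, a small-subunit protein of the pentatricopeptide repeat family with no bacterial counterpart, went from 4.29, 6.65 and 4.33 RPKM to 3.16 and 3.47 (log2 -0.58, SE 0.19, limma adjusted p = 0.119). Mrps28, the counterpart of bacterial S1, went from 5.49, 4.53 and 6.51 to 3.53 and 3.97 (log2 -0.53, SE 0.16, adjusted p = 0.0903). In both the treated values lay below the vehicle range, but the vehicle libraries differed from each other by more than in the called genes. Mrps16, whose mutation in people causes a disorder of mitochondrial translation, had 20.04, 23.3 and 16.5 RPKM against 14.5 and 14.4 (log2 -0.45, SE 0.13, adjusted p = 0.0876). Mrpl33, the counterpart of bacterial L33, had 65.0, 56.6 and 47.5 against 43.4 and 39.3 (log2 -0.44, SE 0.13, adjusted p = 0.0849). Mrpl12, the stalk protein that binds translation factors, had 19.5, 26.5 and 23.3 against 19.7 and 18.5 RPKM, with overlapping groups (log2 -0.26, adjusted p = 0.233). Mrps28 was called without vehicle replicate 2 (limma adjusted p = 0.0230), and Mrps16 and Mrpl33 without vehicle replicate 3 (0.0271 and 0.0297), the library with the fewest alignments. With the sheet letter as a block, vehicle and tofacitinib were compared within 2 pairs of libraries, and vehicle replicate 1, alone in its letter, added nothing. NK libraries of the same letter did not agree in their deviations from the group means (r = -0.14 and -0.16), so the data do not bear out this pairing. In that fit 8 members were called lower and none higher (10.3% of members, against 3.85% of all genes lower and 3.02% higher). Called in that fit and not in the main test were Mrps27 (limma adjusted p = 0.0031), Mrps16 (0.0155), Mrps28 (0.0304), Mrps15 (0.0309), named after its values were seen, and Mrpl12 (0.047), while Mrpl36 was no longer called. With the libraries also scaled to the same median, added after the data had been seen, 9 members were lower and 1, Mrpl24, higher, against 4.01% and 3.38% of all genes. Mrps36, the member that is not a ribosomal protein, had 18.6, 24.9 and 21.8 against 20.5 and 18.9 (log2 -0.14, adjusted p = 0.520).

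A few members lay higher in the tofacitinib NK libraries, and none of them passed the test. Mrpl24, a counterpart of bacterial L24 near the exit of the peptide tunnel, had 54.6, 47.2 and 50.6 RPKM in vehicle and 65.8 and 62.4 in tofacitinib (log2 0.34, SE 0.09, limma adjusted p = 0.0621). The groups did not overlap. Its adjusted p was 0.0498 with the libraries scaled to the same median and 0.0401 without vehicle replicate 2. Mrps25, a small-subunit protein without a bacterial counterpart, had 3.77, 4.53 and 3.98 RPKM against 5.21 and 5.31 (log2 0.36, SE 0.12, adjusted p = 0.123). In GENCODE M21 both genes share exon bases with another coding gene, Mrpl24 594 bases with Rrnad1 and Mrps25 3533 bases with Nr2c2. Mrpl47 shares 610 bases with Actl6a and Ndufb5. Reads of these genes may be partly shared. Mrpl47 was 5.54 ± 1.03 (SD, n = 3) against 6.68 ± 0.534 RPKM (SD, n = 2), a log2 change of 0.28 (adjusted p = 0.320), and Mrpl35 was 3.78 ± 0.476 against 4.47 ± 0.123 (0.24, adjusted p = 0.324).

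**Figure D3:**
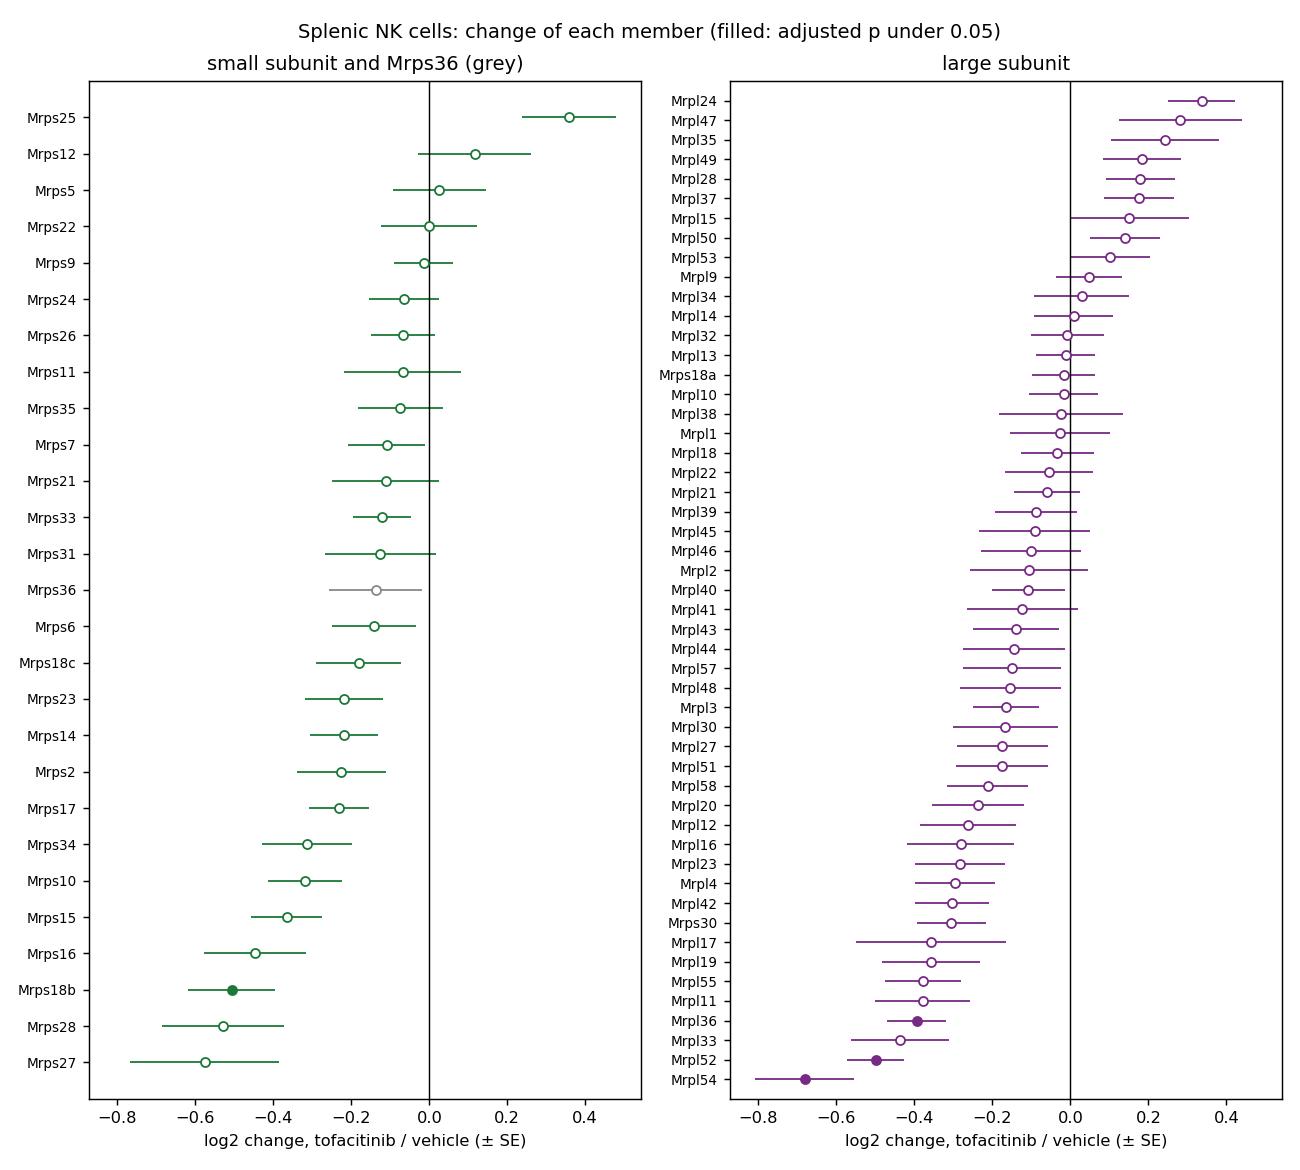
Log2 change of each of the 78 members in NK cells (tofacitinib over vehicle, limma estimate with SE as bars), small subunit and Mrps36 on the left and large subunit on the right. Filled points mark the 4 members with an adjusted p under 0.05, and 63 of the 78 estimates lie to the left of 0.

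Over the whole set, the estimate in NK cells was negative for 63 of 78 members (80.8%, against 52.4% of all genes tested), with a median log2 change of -0.12 (all genes: -0.01). The changes ran from -0.68 to 0.36. Both tofacitinib libraries lay below all 3 vehicle libraries for 27 members, 34.6% against 23.9% of all genes tested, and above them for 7, 8.97% against 20.2%. In the small subunit 23 of 26 estimates were negative (median -0.13, 13 below the vehicle range and 1 called), and in the large subunit 39 of 51 (median -0.11, 14 below and 3 called). Members listed with a bacterial counterpart (46, median -0.13, 1 called) and without one (31, median -0.12, 3 called) had like medians. Mrps18a and Mrps18b, though related to bacterial S18, were listed without one, and Mrps18b is among those 3 called. Short lists, which may be incomplete, were made for parts of the large subunit. The 8 members listed for the central protuberance all had negative estimates (median -0.13, none called, 1 lower at an unadjusted p under 0.05). The 5 listed for the stalk had a median of -0.26 (1 called, Mrpl54). Of 9 listed for the tunnel exit, 3 lay above the vehicle range and 2 below (median -0.09, none called, 1 lower and 1 higher at an unadjusted p under 0.05). None of these groups was tested against the others. The summed RPKM of the members was 1426, 1525 and 1333 in vehicle and 1319 and 1289 in tofacitinib. As a share of the RPKM of all genes tested the groups overlapped, at 0.439%, 0.444% and 0.435% in vehicle and 0.436% and 0.427% in tofacitinib.

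Genes with short transcripts had lower estimates with tofacitinib throughout the NK data, and most members are short. The median summed exon length was 1380.5 bases for members and 3198 for all genes tested (GENCODE M21, GRCm38). Among the other genes tested, the median log2 change went from -0.16 for exon lengths up to 750 bases to 0.01 for those over 2500 bases. Members in the shorter bins lay close to the other genes of their length: -0.12 against -0.16 up to 750 bases (10 members), -0.18 against -0.16 from 750 to 1000 (12 members) and -0.11 against -0.10 from 1000 to 1500 (23 members). Members in the longer bins lay lower than the others, at -0.09 against -0.04 from 1500 to 2500 bases (11 members) and -0.15 against 0.01 above 2500 (22 members). In all, 48 of 78 members lay below the median of the other genes of their bin. The called Mrpl52 and Mrpl54, with 491 and 604 bases, fall in the shortest bin, where 10 of 215 other genes were called lower. Mrps18b and Mrpl36, with 1079 and 1161 bases, fall in the bin of 1000 to 1500 bases, where 30 of 842 others were. The part of transcript length in the result was not tested further.

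**Figure D4:**
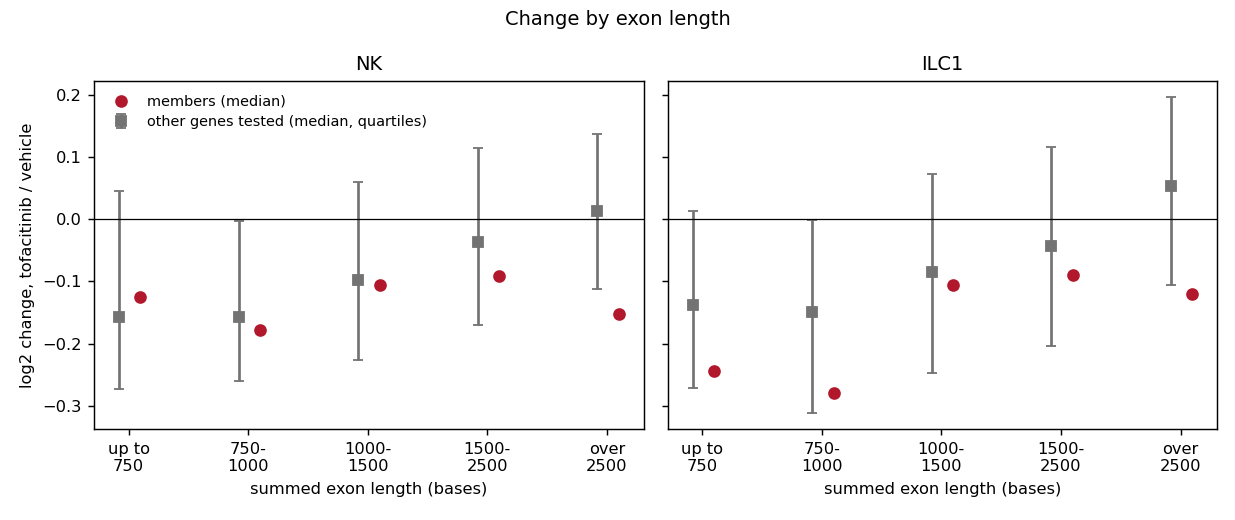
Median log2 change (tofacitinib over vehicle) of members (red) and of all other genes tested (grey, with quartiles) in bins of summed exon length, for NK cells (left) and ILC1 (right). The grey medians go from below 0 in the shortest bins to above 0 in the longest, and the red medians are negative in every bin.

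In ILC1 no member was called, and the replicate libraries differed far more than in NK cells. Over all genes tested 0.278% were called lower and 0.192% higher. No member reached an unadjusted p of 0.05 (limma; the lowest was 0.101, and none was called with each gene's own variance), against 1.41% of all genes lower and 0.811% higher, and the median SE was 0.49 log2 units against 0.11 in NK cells. The estimates were negative for 65 of 78 members (83.3%, against 48.2% of the 9366 genes tested), with a median of -0.12 (all genes: 0.01). That median moved between -0.44 and 0.13 when 1 library was left out: it was 0.13 without tofacitinib replicate 1, the library with neutrophil and erythroid transcripts, -0.39 without vehicle replicate 2 of the same run, and -0.44 without tofacitinib replicate 2. Within run a, which holds that library, the median difference of the members was 0.06 (all genes: 0.22) and within run b -0.15 (all genes: -0.03). Short genes had lower estimates in ILC1 too. Of the other genes, 73.4% were negative up to 750 bases of exon, 75.9% from 750 to 1000 and 64.5% from 1000 to 1500. The share was 57.4% from 1500 to 2500 bases and 40.3% above. In all, 53 of 78 members lay below the median of the other genes of their bin. The part of length was not tested.

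Both tofacitinib libraries lay below all 3 vehicle libraries for 4 members (5.13%, against 3.43% of all genes tested) and above them for none (2.07% of all genes tested). These 4 also lay below the vehicle range in NK cells, an overlap that was not counted over all genes. Mrpl52 had 98.0, 66.6 and 70.2 RPKM in vehicle and 47.2 and 56.3 in tofacitinib, or -0.58 on the log2 scale (SE 0.53), with -0.49 in run a and -0.32 in run b. Mrpl33 had 61.1, 45.8 and 50.3 against 29.9 and 37.3 RPKM (log2 -0.64, and -0.61 and -0.43 within runs a and b). For both genes the gap between the groups was smaller than the spread of the vehicle libraries. Mrpl54 had 14.4, 11.01 and 15.7 against 9.75 and 10.2 RPKM (log2 -0.44, and -0.17 and -0.62 within runs), and Mrpl17, the lowest member, 2.46, 1.83 and 2.63 against 1.38 and 1.70 (log2 -0.55, and -0.38 and -0.60). The limma adjusted p was above 0.99 for every member.

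Relative to the median of all genes in its run, 39 of 78 members (50%) were lower in both runs and 8 (10.3%) higher in both. Of all genes tested, which were not matched for length, 32.3% were lower and 32.3% higher in both. Mrps10 was among the 4 lowest members in both runs, and Mrpl12 was the lowest in run a only. Mrps10, the counterpart of bacterial S10, had 6.69 RPKM in vehicle and 4.90 in tofacitinib in run a, and 12.1 and 6.84 in run b. Mrpl12 had 23.8 and 13.8 in run a and 34.9 and 26.3 in run b. With the run as a block and the libraries scaled to the same median, an analysis added after the data had been seen, 8 members were called lower and none higher (10.3% of members, against 5.3% of all genes lower and 2.71% higher). They were Mrps10 (log2 -0.72, limma adjusted p = 0.00305), Mrpl12 (-0.69, 0.0106), Mrpl33 (-0.62, 0.0159), Mrps16 (-0.54, 0.0169), Mrps18b (-0.61, 0.0222), Mrpl54 (-0.49, 0.0313), Mrpl23 (-0.51, 0.0315) and Mrps2 (-0.50, 0.0443). Mrps10, Mrps2, Mrps16 and Mrpl23 are named here after their values were seen. With the run as a block and no scaling none was called, and both of these fits rest on the 4 libraries of runs a and b only. In the same fit Mrpl52 had -0.50 (adjusted p = 0.0568) and Mrpl36 -0.35 (0.135).

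**Figure D5:**
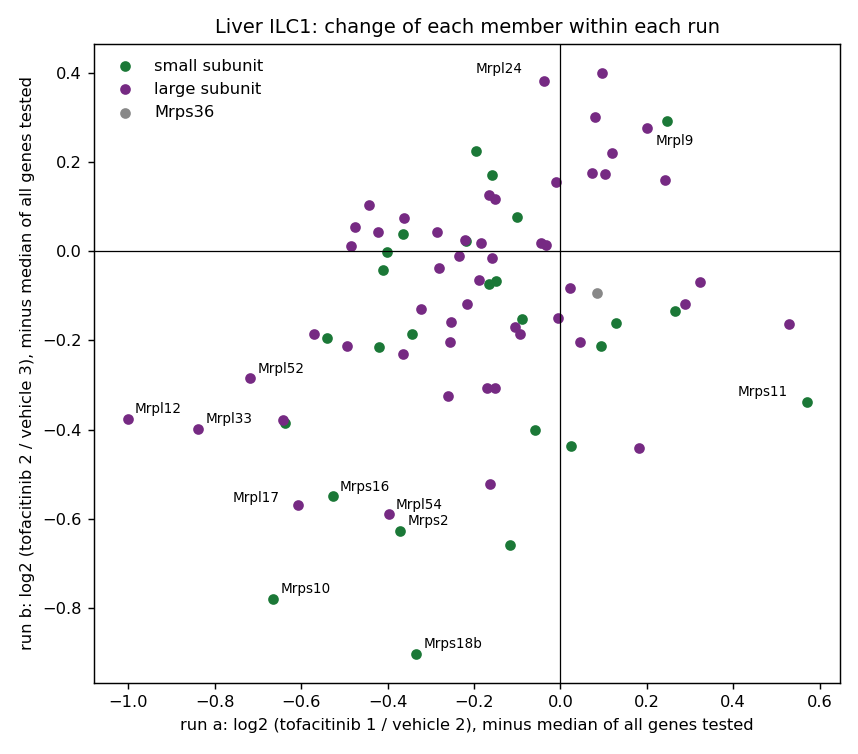
Log2 difference between tofacitinib and vehicle in ILC1 within run a (x axis) and run b (y axis) for each member, after subtracting the median of all genes tested in that run. The lower left holds 39 of 78 members, with Mrps10, Mrpl12 and Mrps18b farthest out, and the upper right 8.

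The share of RPKM that the members held among the genes tested was lower with tofacitinib in both runs of ILC1. It was 0.501%, 0.488% and 0.461% in vehicle replicates 1 to 3 and 0.446% and 0.439% in tofacitinib replicates 1 and 2, so the groups did not overlap, and it went from 0.488% to 0.446% in run a and from 0.461% to 0.439% in run b. No test was made on this sum. The summed RPKM itself was 983 and 972 in the libraries of run a and 1446 to 1593 in the other 3.

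The responses of ILC1 and NK cells were set against each other as an interaction term, in 1 limma fit of all 10 libraries over 8981 genes that were tested in NK cells and in ILC1. No member was called, against 0.0445% of genes with a lower and 0.1% with a higher response in ILC1, and none reached an unadjusted p of 0.05. The differences of response ran from -0.52 to 0.41 log2 units with a median SE of 0.47, so differences of that size were not detectable in these libraries. Across the 78 members the changes in NK cells and ILC1 had a Pearson correlation of 0.592, and across all 8981 genes 0.595, given as a description over genes of the same libraries. The estimates were negative in both cell types for 56 members. That share was not counted over all genes, so the count is not read as particular to the members.

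Several other gene groups serve the mitoribosome, and 2 of their genes were called in NK cells. Of 25 tested factors of mitoribosome assembly and rRNA modification, 1 fell and 1 rose (4% each, against 3.02% and 1.79% of all genes tested; median -0.07). Mpv17l2, an inner-membrane protein needed for mitoribosome assembly, fell from 19.5, 22.5 and 19.9 RPKM to 14.7 and 15.0 (log2 -0.47, SE 0.09, limma adjusted p = 0.0245). Mtg2, a GTPase of large-subunit assembly, rose from 7.77, 8.30 and 8.27 to 10.4 and 10.5 (log2 0.36, SE 0.09, adjusted p = 0.0499). Neither call held without tofacitinib replicate 1 or 2 (limma adjusted p = 0.254 and 0.173 for Mpv17l2, 0.378 and 0.321 for Mtg2), nor did that of Mtg2 without vehicle replicate 1 (0.130) or 3 (0.0629). In all, the call of Mtg2 was lost in 10 of 16 alternatives, among them the sheet letter as a block (0.134), no filter on low values (0.116) and no variance trend (0.0624). The 5 tested mitoribosomal proteins with other symbols had no call (1 lower and 1 higher at an unadjusted p under 0.05): Aurkaip1 went from 40.0 ± 3.96 to 30.8 ± 0.614 RPKM (adjusted p = 0.0633) and Dap3 from 7.62 ± 0.280 to 8.91 ± 0.151 (adjusted p = 0.175). None was called by limma among 15 translation factors, 20 genes listed as mitochondrial tRNA synthetases and 13 genes of mitochondrial transcription and DNA upkeep. At an unadjusted p under 0.05 (limma) these groups had 3 lower and 1 higher, 3 and 1, and 0 and 1. The synthetase list also holds Qrsl1, Gatb and Gatc, which belong to an amidotransferase, and Kars and Gars, which serve the cytosol too. The smallest p-values of the first 2 groups belonged to Gfm1, mitochondrial elongation factor G (log2 -0.33, adjusted p = 0.0876), and Hars2, which charges histidine tRNA (0.30, adjusted p = 0.0726). Their medians were 0.01, -0.10 and -0.03. In ILC1 none of the 5 groups had a call (limma, 1 gene lower at an unadjusted p under 0.05), and their medians lay between -0.05 and -0.04.

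Myc and the coactivator Pprc1, which are known to drive genes of mitochondrial and ribosome production, fell more than any member in NK cells. Myc had 13.0, 13.0 and 11.9 RPKM in vehicle and 7.33 and 7.29 in tofacitinib (log2 -0.78, SE 0.09, limma adjusted p = 0.00308). Pprc1 had 4.67, 4.85 and 4.84 against 2.93 and 2.46 (log2 -0.81, SE 0.13, adjusted p = 0.0117, and 0.0662 and 0.130 without tofacitinib replicate 1 or 2). In both the groups lay well apart. The call of Myc was lost in 2 alternatives and that of Pprc1 in 5. The other 7 tested regulators of the list had no call (1 higher at an unadjusted p under 0.05 by limma). In ILC1 neither was called: Myc went from 24.7, 11.7 and 25.9 to 5.96 and 9.17 RPKM (log2 -1.39, adjusted p = 0.469) and Pprc1 from 5.98, 3.02 and 5.76 to 1.91 and 1.84 (log2 -1.28, adjusted p = 0.480). All treated values lay below all vehicle values, and with the run as a block the limma adjusted p was 5.74e-06 for Myc and 0.00039 for Pprc1. Without vehicle replicate 2, the vehicle library of run a, it was 0.000626 and 0.00473. Tofacitinib replicate 1 is then the only library of run a, where most genes had low RPKM. Run and treatment are partly mixed in that fit. Links between these genes and the members were not tested.

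Set beside large families of the cytosolic ribosome and the respiratory complexes, the members had a median closer to 0 in NK cells. The 77 cytosolic ribosomal protein genes had a median of -0.21 with 56 below the vehicle range and none called. At an unadjusted p under 0.05 by limma, 9 of them were lower. Subunits of oxidative phosphorylation mostly belong to complexes that also hold products of the mitoribosome. Complex II, whose Sdh genes are on the list, holds none. The 78 tested subunits had a median of -0.21 with 41 below the range, none called lower and 1 higher. At an unadjusted p under 0.05 by limma, 28 were lower and 1 higher. In ILC1 the medians were -0.10 and -0.22. The families were not tested against each other, and their genes differ in length.

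The members lie on 17 chromosomes and often stand back to back with another gene. For 33 of 78 (42.3%) a protein-coding gene on the other strand starts within 1000 bases, against 18.7% of the genes tested in NK cells and 10.9% of all protein-coding genes. Neighbours of the called members did not share their calls. Mrpl54 starts 26 bases from Apba3, which had 5.74, 7.40 and 5.85 RPKM in vehicle and 8.26 and 7.79 in tofacitinib NK libraries, the direction opposite to Mrpl54 (log2 0.35, limma adjusted p = 0.145). Mrps18b starts 45 bases from Ppp1r10 (log2 -0.13, adjusted p = 0.443), and Mrpl36 overlaps the start of Ndufs6, a subunit of respiratory complex I, by 30 exon bases (log2 -0.32, adjusted p = 0.183). In all, 17 members share exon bases with another coding gene, and reads from those bases cannot be assigned to 1 of them without strand.

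Some promoter motifs were more frequent in the members than in other promoters. RefSeq windows of 250 bases before to 50 after the start were found for 69 members (75 windows) and compared with all 32851 windows and the 9548 windows of genes tested in NK cells. The YY1 word AAGATGGC was in 16.0% of member windows, 2.75% of all and 5.24% of tested windows, and the NRF1 word CGCATGCG in 9.33%, 1.87% and 4.40%. The looser NRF1 word CGCNTGCG, which includes the former, was in 26.7%, 8.21% and 18.7%, and the ETS word CCGGAAG in 34.7%, 8.86% and 20.7%. The ETS word extended by a T was in 16.0%, 3.89% and 9.60%. The E-box CACGTG (9.33%, 7.15% and 10.6%), the CRE TGACGTCA (2.67%, 1.79% and 3.27%) and the SP word GGGCGG (52.0%, 35.7% and 64.1%) were not more frequent than in the tested genes. The median GC content was 58.7% in member windows, 52.7% in all and 61.0% in tested ones. All words were searched on both strands, and a match is a match of letters only. Shares count windows, so a member with several windows weighs more. The E-box share rests on 7 member windows, and the E-box of Mrpl2 was counted in each of its overlapping windows (at -131, -139 and -147). The share of the NRF1 word CGCATGCG also rests on 7 member windows.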

How the data were processed

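RNA of sorted splenic NK cells and liver ILC1 was sequenced in 10 libraries. The authors' single-end reads of 50 bases were mapped by TopHat2 2.1.1 on mm10, and Partek gave the RPKM; the processing notes also name CASAVA 1.8.2. The deposited RPKM values, in 1 table per cell type, were used as they stand, together with the count of alignments per library in the deposited sample sheets. Further tables hold the authors' own comparisons (fold changes and p-values) and were not used. Gene annotation choices are not given in the sources used here. The build derives from another strain (C57BL/6) than the BALB/C mice.

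Log2(RPKM + 0.1) was compared within each cell type with limma 3.58.1 in R 4.3.3 (empirical Bayes with trend) for genes with a group mean above 1 on that scale in at least 1 group. Excluding 1296 Mir and Snor names, 9472 genes were tested in NK cells and 9366 in ILC1. A log2 change on this scale understates the change of low genes. The method was tested on simulated data. The study used an analysis of variance with the same offset, for which limma was substituted. Runs of ILC1 and letters of NK libraries come from the deposited sample sheets. Each library's deviation from its group mean was correlated over genes: libraries of the same ILC1 run agreed (r = 0.63 and 0.78), which was not so for equal replicate numbers (0.16 and -0.63), nor in NK cells (0.02 and 0.14 by number, -0.14 and -0.16 by letter), so replicate numbers were not used as pairs. The deviations of the tofacitinib libraries of a cell type mirror each other, so this check is weak and cannot exclude a pairing in NK cells. The median run differences are differences of log2(RPKM + 0.1).

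Members and gene lists were chosen with earlier results of these data known. Genes named are the called members, the largest changes outside the vehicle range, the highest and lowest levels, the S18 paralogues, Mrps36, Mrpl36 and Mrpl12, and up to 3 genes of each other list with the smallest p. Exon lengths and positions are from GENCODE M21 (GRCm38) and promoter windows from RefSeq (GRCm38.p6). Alternatives changed the offset, filter, scale, variance model, blocks and libraries. Raw reads are not analysed here.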

Additional observations from a re-analysis of the deposited data

How the results depend on the processing

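In NK cells the number of members called (4, all lower) stayed within 1.5 times under the offset of 1, the stricter filter, both other scalings and no variance trend. It was 1 with no filter on low values, 0 with each gene's own variance and 0 with all 10 libraries in 1 fit. Leaving out 1 library gave 0 to 6, with 0 without either tofacitinib replicate and 1 without vehicle replicate 1. With a replicate block it was 22 (21 lower and 1 higher, with 12.1% of all genes lower and 7.01% higher). The data do not bear out pairing by replicate number. The count with the sheet letter as a block was 8, all lower and without Mrpl36 (all genes 3.85% lower and 3.02% higher). With that block and the same median it was 10 (9 lower and 1 higher, against 4.01% and 3.38% of all genes), a fit added after the data had been seen. Libraries of the same letter did not agree either, so the data do not bear out that pairing, though this check cannot exclude it. The NK median of -0.12 ran from -0.20 to -0.08 over the left-out libraries, and was -0.20 with the replicate block.

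In ILC1 the count of 0 became 1 with the libraries scaled to the same median, 2 with quantile normalization and 8 with the run block and the same median. It was 0 in each left-out fit and with the replicate block, where the median was 0.03. The ILC1 median ran from -0.44 to 0.13 over left-out libraries. The interaction count stayed at 0 under every alternative run. Among named genes 3 reversed: Mrps18a in NK cells had 0.015 with the sheet letter as a block and 0.023 with that block and the same median, and -0.052 to 0.015 over left-out libraries. Over left-out libraries Chchd1 in NK cells had -0.21 to 0.0053, positive without tofacitinib replicate 2, and Mrpl36 in ILC1 -0.82 to 0.031, positive without tofacitinib replicate 1. The causes were not tested. Depth per gene is unknown from RPKM, and the ILC1 spread limits what could be called there.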
